A study of Mus musculus with 12 samples.

Results

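The DnaJ proteins, or Hsp40 proteins, are the co-chaperones of Hsp70. The data described here are those of the 10 genes Dnaja1, Dnaja2, Dnaja4, Dnajb1, Dnajb2, Dnajb4, Dnajb5, Dnajb6, Dnajc5 and Dnajc21, whose products work outside the endoplasmic reticulum (ER), in the prefrontal cortex of the mouse over 1 day. Every probe set of the array annotated to 1 of these genes alone was taken, which gave 33 of 45037 (controls left out). Of these, 31 were bright enough to be tested, and the 2 that were not were Dnajb6 1429777_at (mean log2 intensity 3.88) and Dnajc21 1420221_at (4.38), both below the lowest mean tested, 4.87. The 10 genes stand among 18193 genes with a probe set of 1 symbol. Some of the products are not confined to the cytosol. Dnajc21 is also known from the nucleolus, and Dnajb6 has a nuclear isoform.

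All mice were C57BL/6J, 10 weeks old when obtained, without any transgene or drug, and all were kept in cycles of 12 h light and 12 h dark. Zeitgeber time (ZT) counts hours from lights on, so that ZT3 and ZT9 lie in the light, when mice mostly rest, and ZT15 and ZT21 in the dark, when they are mostly active. At each time 3 mice were killed, and the RNA of each went onto 1 Affymetrix Mouse430_v2 array, which gave 12 arrays. The samples cover 1 day, so whether a course repeats on a further day cannot be seen. At ZT15 and ZT21 the brains were removed under red light, which cannot be told apart from the dark phase. In tissue RNA more cells of a type and more RNA per cell cannot be told apart either.

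A DnaJ protein binds an unfolded client, hands it to Hsp70 and, through its J domain, makes Hsp70 split ATP and close on the client. Type A members carry a zinc-binding region beside the J domain, type B members lack it, and type C members share only the J domain. In neurons these proteins keep clients from aggregating, and Dnajc5, the cysteine string protein, does so on the synaptic vesicle. Several genes of this group, Dnajb1 above all, are classic targets of the heat shock factor Hsf1, which binds inverted repeats of nGAAn in a promoter.

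Windows from 250 bases before to 50 bases after the annotated start (RefSeq, GRCm38.p6) were at hand for 9 of the 10 genes, 18 windows in all, and Dnajc5 was without one. Each was searched on both strands for facing pairs of the heat shock unit, GAANNTTC and TTCNNGAA. The stretches around the pairs are shown because this is the best known element of stress-inducible members of the group. In the printed stretches, 5′ to 3′ on the strand of the gene, capitals mark the pair.
Dnaja1, chr4:40722318-40722377, plus strand: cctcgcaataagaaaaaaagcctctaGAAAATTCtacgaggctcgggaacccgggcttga
Dnaja4, chr9:54699443-54699520, plus strand: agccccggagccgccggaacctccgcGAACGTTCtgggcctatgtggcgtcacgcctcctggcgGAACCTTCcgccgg
Dnajb4, chr3:152193826-152193885, minus strand: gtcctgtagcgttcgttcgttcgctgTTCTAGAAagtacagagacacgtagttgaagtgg
Dnajb6, chr5:29735826-29735885, plus strand: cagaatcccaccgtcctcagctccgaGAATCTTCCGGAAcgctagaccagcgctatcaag

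A pair was found in 5 of the 18 windows, from 4 genes. It lay 124 bases before the start in Dnaja1, 90 and 52 bases before it in Dnaja4 and 14 bases before it in Dnajb4, each in 1 of the windows of the gene. In Dnajb6 the same site stood in both overlapping windows, as 3 units in a row (GAANNTTC followed by NNGAA). Of all 32851 promoter windows, 7.86% held GAANNTTC, 8.52% held TTCNNGAA, 15.1% held either and 0.603% held 3 units in a row. The cAMP response element TGACGTCA (1.79% of all windows) and the E-box CACGTG (7.15%) were in none of the members' windows. Neither the pair nor these elements were in the windows of the genes whose probe sets passed the test over the day below, Dnajb5, Dnajc21 and Dnajb1, and the 100 bases before 1 annotated start of each are given for comparison, without capitals because no searched motif lies in them.
Dnajb5, chr4:42949767-42949866, plus strand: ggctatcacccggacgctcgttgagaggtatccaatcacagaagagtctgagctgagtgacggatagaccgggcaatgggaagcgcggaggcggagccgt
Dnajc21, chr15:10470517-10470616, minus strand: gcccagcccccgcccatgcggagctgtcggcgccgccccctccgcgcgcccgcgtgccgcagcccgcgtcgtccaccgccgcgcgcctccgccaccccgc
Dnajb1, chr8:83608075-83608174, plus strand: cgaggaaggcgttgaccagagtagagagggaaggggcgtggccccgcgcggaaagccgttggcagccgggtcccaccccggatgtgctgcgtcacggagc
A match is a description of letters, and no match says only that these letters are not in the window searched.

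The arrays themselves differed in brightness. Mean intensity lay between 392.5 and 398.1 on 4 arrays (ZT9 replicates 1 and 2, ZT15 replicate 3 and ZT21 replicate 3) and between 344.0 and 374.4 on the other 8, which include all 3 of ZT3. The median log2 intensity of the tested probe sets ran from 7.71 to 7.87 over the arrays. Of 8 neuronal marker genes, all were tested and 0 passed the test over the day. The log2 of their summed intensities, which leans on the brightest genes, lay between 15.37 and 15.78 on every array. The same held for the 7 myelin (15.16 to 15.50), 6 astrocyte (14.32 to 14.83) and 6 microglial genes measured (11.49 to 11.91), while 1 of the 4 tested endothelial genes, Cldn5, passed. Each marker gene was tested by its brightest probe set alone, so this does not show that the genes were flat over the day. The authors reported Mbp, a myelin gene, as diurnal in this series. The 5 choroid plexus genes summed to 14.85 in ZT9 replicate 3 and to 14.21 in ZT15 replicate 1, against 9.64 to 12.45 on the other 10 arrays, nearly all of it Ttr. Of the 5 olfactory bulb markers, 4 (Eomes, Tbx21, Doc2g and Th) were too dim to be tested, as was Hba-a1 of blood, and the 5 striatal genes measured summed to 10.15 to 10.88. Results are given below without the 4 bright arrays and without the 2 arrays rich in Ttr where that ends a call. Most calls gained in this way are not listed by probe set. Without the 4 bright arrays ZT9 is left with replicate 3 alone, which is 1 of the 2 arrays rich in Ttr. Calls and p-values of that setting are therefore weak. The part of either set of arrays in the results was not tested otherwise.

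Over the 4 times of day, 3 of the 10 genes had at least 1 probe set called by the test below, namely Dnajb5, Dnajc21 and Dnajb1. The share of all genes with any probe set called is not given here, and more probe sets give a gene more chances of a call. Dnajb5 was about 2-fold higher at ZT15 than at ZT3 by all 3 of its probe sets, Dnajc21 was about 2-fold higher at ZT15 than at ZT9 by 2 of its 4 tested probe sets, and Dnajb1 was 1.36-fold higher at ZT15 than at ZT3 by 1 of 2. The test was limma's moderated F-test over the 4 groups, called at a p-value under 0.20 after adjustment across the whole set of tested features. By it 7 of the 31 member probe sets (22.6%) were called, where 1.93% of all tested probe sets were. Of the 7, 6 had their highest mean at ZT15, and so did 47.8% of all called probe sets. A call with the highest mean at ZT15 was thus made for 19.4% of the 31 and for 0.921% of all tested. With 1 probe set per gene, the brightest, 2 of the 10 genes were called (Dnajb5 and Dnajc21), against 2.06% of all genes. The multiclass SAM statistic, at a q-value under 0.20, called 13 of the 31, where it called 11.5% of all probe sets. Those 13 were the 7 and the second Dnajb1 probe set, 3 of Dnaja2 and 1 each of Dnaja1 and Dnajb4.

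From the lowest to the highest of the 4 group means, the difference had a median of 0.44 (log2) over the 31 member probe sets and of 0.27 over all tested. With the brightest probe set per gene the median was 0.21 over the 10 members and 0.26 over all genes. The highest mean lay at ZT15 for 16 of the 31 (51.6%), at ZT3 for 7, at ZT9 for 5 and at ZT21 for 3, and ZT15 was never the lowest. Over all tested probe sets 24.1% were highest at ZT15. Probe sets of 1 gene share its transcripts, so they are not separate counts of genes.

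**Figure D1:**
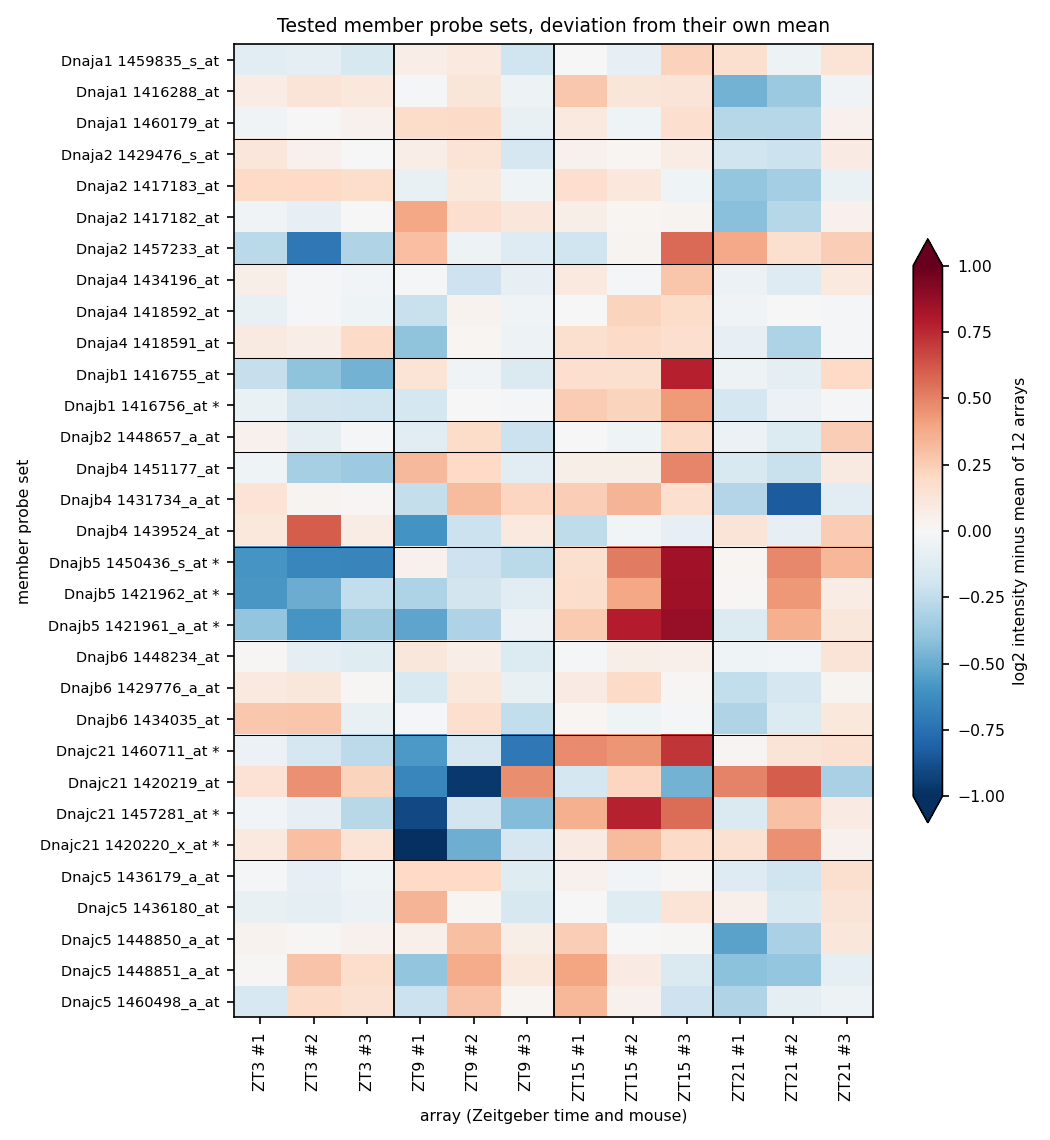
Deviation of the log2 intensity from the mean of the 12 arrays for the 31 tested member probe sets (rows, ordered by gene; an asterisk marks a call over the day) on each array (columns, by Zeitgeber time and mouse). The 3 Dnajb5 rows run from blue at ZT3 to red at ZT15, Dnajc21 1460711_at and 1457281_at are lowest at ZT9 and highest at ZT15, and several Dnaja1, Dnaja2 and Dnajc5 rows are lowest at ZT21.

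Dnajb5 lies at chr4:42949867-42959425. It is a type B member close to Dnajb1, found in brain and heart, and is known to take part in the redox-controlled traffic of a class II histone deacetylase. Its brightest probe set, 1450436_s_at, read 10.23, 10.17 and 10.16 at ZT3, 10.86, 10.61 and 10.55 at ZT9, 10.98, 11.34 and 11.66 at ZT15 and 10.84, 11.30 and 11.15 at ZT21 (log2 intensity, replicates 1 to 3). All 3 mice of ZT3 were below the other 9, and the ZT15 and ZT21 values overlapped. The means were 10.19 ± 0.03 at ZT3, 10.67 ± 0.16 at ZT9, 11.33 ± 0.34 at ZT15 and 11.10 ± 0.24 at ZT21 (SD, n = 3 each). ZT15 was above ZT3 by 1.14 ± 0.17 (SE, log2), or 2.20-fold, with an adjusted p of 0.0648 over the 4 times.

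The other Dnajb5 probe sets had the same order of times. Probe set 1421962_at read 8.81, 8.90 and 9.15 at ZT3, 9.09, 9.21 and 9.29 at ZT9, 9.57, 9.78 and 10.24 at ZT15 and 9.41, 9.83 and 9.47 at ZT21. Probe set 1421961_a_at read 8.07, 7.88 and 8.11 at ZT3, 7.94, 8.16 and 8.41 at ZT9, 8.73, 9.25 and 9.34 at ZT15 and 8.33, 8.82 and 8.58 at ZT21. In both, every ZT15 mouse was above every mouse of ZT3 and ZT9, and ZT15 overlapped with ZT21. ZT15 exceeded ZT3 by 0.91 ± 0.17 in 1421962_at (1.88-fold, adjusted p = 0.145) and by 1.08 ± 0.18 in 1421961_a_at (2.11-fold, adjusted p = 0.0926). Over the 12 arrays, which the probe sets share, the 3 correlated pairwise with Pearson's r between 0.87 and 0.94.

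The ascending order of the means of Dnajb5, from ZT3 through ZT9 and ZT21 to ZT15, was the same by all 3 probe sets, but no single step between neighbouring times passed an adjusted p of 0.05. The smallest was that of 1421961_a_at from ZT9 to ZT15, with a difference of 0.93 ± 0.18 and an adjusted p of 0.0907. The call of 1450436_s_at ended without ZT3 replicate 2 (adjusted p = 0.255) or ZT3 replicate 3 (0.216). That of 1421961_a_at ended without either of these or ZT15 replicate 2 (0.233 to 0.273), and that of 1421962_at without any 1 of 7 arrays (all 3 of ZT3, ZT9 replicate 2, ZT15 replicate 2 and ZT21 replicates 1 and 2; 0.209 to 0.424), while the difference itself lay between 0.72 and 1.31 in every limma setting for the 3 probe sets. Without the 4 bright arrays the differences were 0.97 in 1450436_s_at, 0.72 in 1421962_at and 0.96 in 1421961_a_at. Without the 2 arrays rich in Ttr all 3 were called, where 1.78% of all tested probe sets were. None of the 3 was called without moderation (0.237 to 0.350), and 1421962_at was not called without a filter (0.243).

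**Figure D2:**
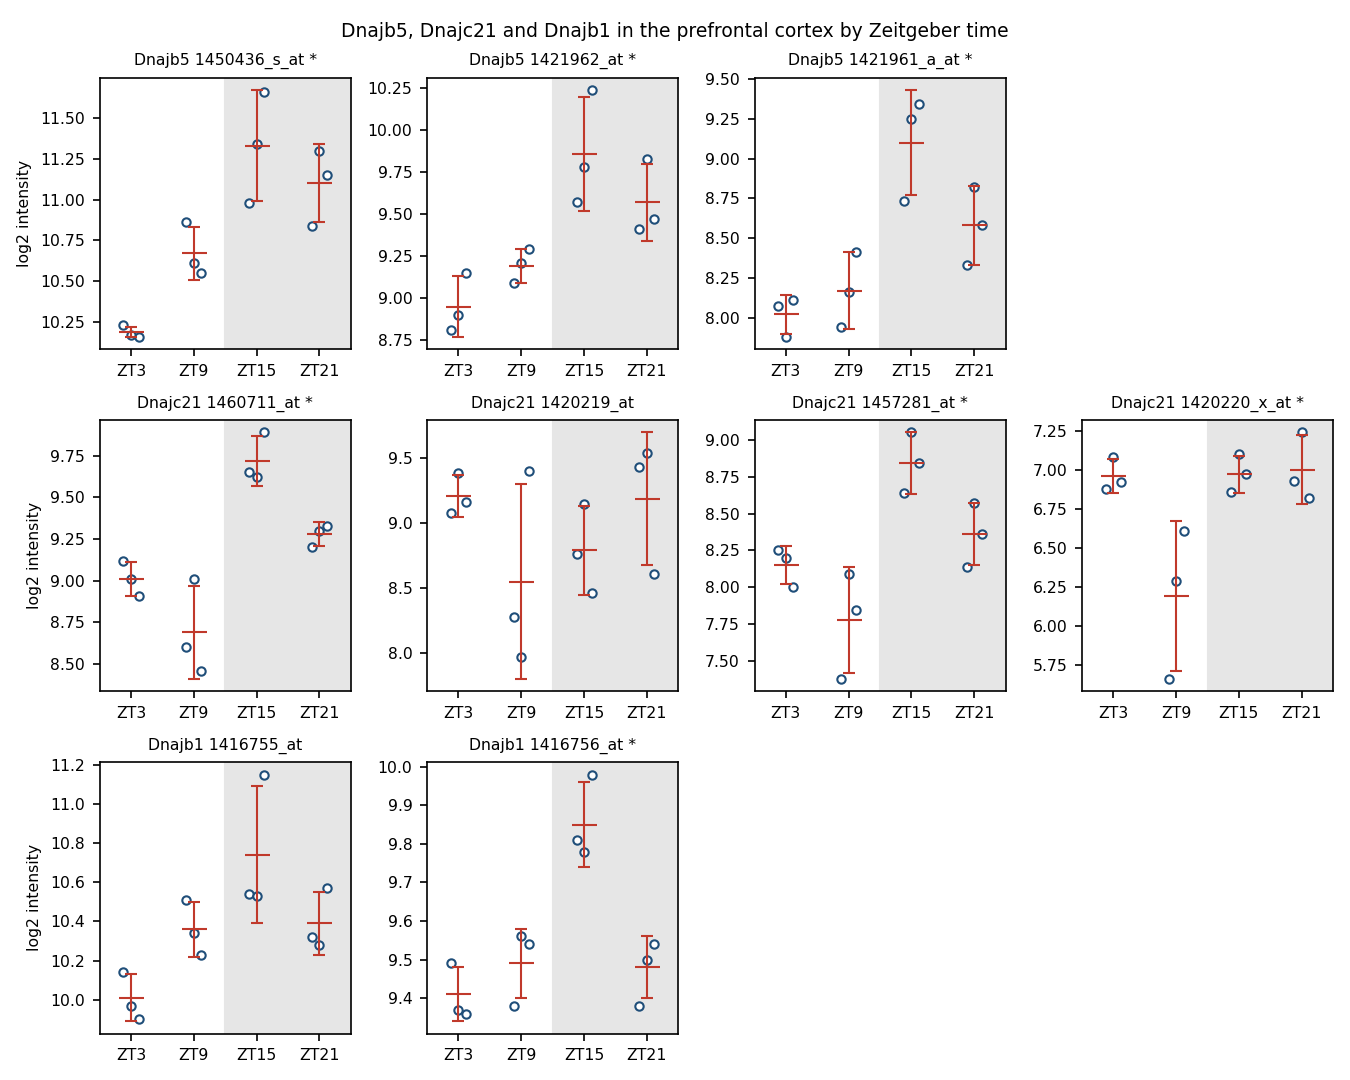
Log2 intensity (y axis, a separate scale per panel) of the tested probe sets of Dnajb5, Dnajc21 and Dnajb1 in each of 3 mice (circles, replicates 1 to 3 from left to right) at ZT3, ZT9, ZT15 and ZT21, with the mean and SD in red and the dark phase shaded; an asterisk marks a call over the day. Dnajb5 climbs from ZT3 to ZT15 in all 3 panels, whereas Dnajc21 1420219_at shows no ZT15 peak, unlike 1460711_at and 1457281_at of the same gene.

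Dnajc21 lies at chr15:10446763-10470568. It is a type C member that takes part in the maturation of the large ribosomal subunit. Probe set 1460711_at, which had the smallest p of all member probe sets, read 9.12, 9.01 and 8.91 at ZT3, 8.60, 9.01 and 8.46 at ZT9, 9.65, 9.62 and 9.89 at ZT15 and 9.20, 9.30 and 9.33 at ZT21. The 3 mice of ZT15 were above the other 9, the 3 of ZT21 came next without overlap, and ZT3 and ZT9 overlapped. Means were 9.01 ± 0.10 at ZT3, 8.69 ± 0.28 at ZT9, 9.72 ± 0.15 at ZT15 and 9.28 ± 0.07 at ZT21 (SD, n = 3 each). ZT15 exceeded ZT9 by 1.03 ± 0.14, or 2.05-fold, and the adjusted p over the 4 times was 0.0504.

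Probe set 1457281_at of Dnajc21 moved with it (r = 0.91 over the 12 arrays). It read 8.25, 8.20 and 8.00 at ZT3, 7.38, 8.09 and 7.85 at ZT9, 8.64, 9.05 and 8.84 at ZT15 and 8.14, 8.57 and 8.36 at ZT21, again with all 3 ZT15 mice above the other 9. The difference between ZT15 and ZT9 was 1.06 ± 0.18 (2.09-fold), with an adjusted p of 0.121. In all, 3 member probe sets had the 3 ZT15 arrays above the other 9, these 2 and Dnajb1 1416756_at, which is 9.68% of the 31 against 1.18% of all tested.

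The remaining probe sets of Dnajc21 did not share that peak. Probe set 1420220_x_at, whose suffix marks probes that can also bind other transcripts, read 6.88, 7.08 and 6.92 at ZT3, 5.66, 6.29 and 6.61 at ZT9, 6.86, 7.10 and 6.97 at ZT15 and 6.93, 7.24 and 6.82 at ZT21. Here the 3 mice of ZT9 were below the other 9, the other times overlapped, and ZT21 exceeded ZT9 by 0.81 ± 0.20 (1.75-fold, adjusted p = 0.1999, at the threshold). Probe set 1420219_at ranged from 7.97 to 9.40 at ZT9 alone, was highest at ZT3 (9.21 ± 0.16) and was not called (adjusted p = 0.477). It correlated with 1460711_at at -0.10 and with 1420220_x_at at 0.67. The places of these probe sets on the transcript were not analysed here.

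The call of 1460711_at held without any single array and in all 11 other settings, at adjusted p-values from 0.00714 to 0.190 by limma, and the difference lay between 0.81 and 1.19. That of 1457281_at was lost on leaving out ZT15 replicate 2 or replicate 2 or 3 of ZT3 (adjusted p from 0.249 to 0.273), and without a filter (0.232) or moderation (0.340). That of 1420220_x_at ended without any 1 of 8 arrays (all of ZT3, ZT9 replicate 2, ZT15 replicates 1 and 2, ZT21 replicates 1 and 2; 0.231 to 0.433) and in 5 other settings. These were leaving out the 4 bright arrays (0.308), an intensity trend with a robust prior (0.215), no filter (0.338), no moderation (0.406) and the replicate block (0.278), and with the 15000 brightest probe sets it was not tested.

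The 5 genes outside the group with the course most like that of 1460711_at over the 12 arrays were Cacng2, a subunit that escorts AMPA receptors (r = 0.961), the splicing factor Sfpq (0.954), the neuronal ubiquitin ligase Trim9 (0.938), the neurotrophin Bdnf (0.937) and the sialyltransferase St8sia5 (0.928). All 5 were highest at ZT15 and lowest at ZT9, and their differences ran from 0.48 for Cacng2 to 1.18 for Bdnf. This is a description, since all genes share the arrays with their brightness and times of day.

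Dnajb1, the heat-inducible partner for which the name Hsp40 was coined, lies at chr8:83608175-83612653. Probe set 1416756_at read 9.49, 9.37 and 9.36 at ZT3, 9.38, 9.56 and 9.54 at ZT9, 9.81, 9.78 and 9.98 at ZT15 and 9.38, 9.50 and 9.54 at ZT21. The 3 ZT15 mice were above the other 9, which overlapped with each other. ZT15 exceeded ZT3 by 0.44 ± 0.09 (1.36-fold, adjusted p = 0.179). The brighter probe set 1416755_at read 10.14, 9.97 and 9.90 at ZT3, 10.51, 10.34 and 10.23 at ZT9, 10.54, 10.53 and 11.15 at ZT15 and 10.32, 10.28 and 10.57 at ZT21, with all of ZT3 below the rest and ZT15 replicate 3 far above its group. It had a larger difference, 0.74 ± 0.16 (1.67-fold), but lay outside the threshold (adjusted p = 0.227). The call of 1416756_at ended without any 1 of 9 arrays (all of ZT3 and ZT15, ZT9 replicate 2, ZT21 replicates 1 and 2; adjusted p = 0.224 to 0.426) without the 2 arrays rich in Ttr (0.231), without moderation (0.254) and with the replicate block (0.324). The lead probe sets of Dnajb1, Dnajb5 and Dnajc21 correlated pairwise between 0.68 and 0.77 over the 12 arrays. Each was the probe set of its gene with the smallest F-test p, and all 3 were highest at ZT15. That choice itself favours a positive correlation, so the values are a description.

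The other members had no probe set past the F-test in the fit to all 12 arrays. The 3 type A genes come first. Dnaja1 (chr4:40722468-40734965), a farnesylated partner of the constitutive Hsp70, was read by 3 probe sets that did not run alike, with r from -0.18 to 0.80. By 1416288_at it read 11.61, 11.66 and 11.64 at ZT3, 11.52, 11.65 and 11.48 at ZT9, 11.80, 11.65 and 11.66 at ZT15 and 11.06, 11.16 and 11.50 at ZT21, where ZT21 had the lowest mean and overlapped only with ZT9 (adjusted p = 0.228, just outside). By the brightest, 1459835_s_at, ZT21 had the highest mean, 12.64 ± 0.12 against 12.43 ± 0.04 at ZT3 (adjusted p = 0.591). By 1460179_at the highest mean was that of ZT9 and the lowest that of ZT21, with a difference of 0.28 ± 0.12 (adjusted p = 0.407).

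Dnaja2 (chr8:85537633-85555361), the related partner of Hsp70 with a strong refolding activity, was likewise split. By 1417183_at it read 10.91, 10.91 and 10.89 at ZT3, 10.64, 10.82 and 10.67 at ZT9, 10.88, 10.82 and 10.67 at ZT15 and 10.33, 10.37 and 10.65 at ZT21. The ZT3 mice were above the other 9, and ZT3 exceeded ZT21 by 0.46 ± 0.10 (adjusted p = 0.227). Probe set 1457233_at ran the other way, with 8.15 ± 0.25 at ZT3 and 8.84 ± 0.11 at ZT21 (adjusted p = 0.276), and the 2 correlated at -0.69. Probe set 1417182_at was highest at ZT9 (8.98 ± 0.15) and lowest at ZT21 (8.54 ± 0.24; adjusted p = 0.283). The brightest, 1429476_s_at, had means between 11.35 and 11.51 (adjusted p = 0.646). Dnaja4 (chr9:54698848-54716317) had its highest mean at ZT15 and its lowest at ZT9 by all 3 probe sets, with differences of 0.21 to 0.32 (adjusted p = 0.303 to 0.499).

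Among the type B genes, Dnajb4 (chr3:152181580-152210432), a close relative of Dnajb1, had 2 probe sets with opposite weak courses (r = -0.62 between 1451177_at and 1439524_at). The brightest, 1451177_at, was 10.11 ± 0.18 at ZT3 and 10.55 ± 0.25 at ZT15 (adjusted p = 0.319). The largest difference was that of 1431734_a_at, 0.66 ± 0.18 between ZT15 and ZT21, where ZT21 replicate 2 read 7.64 (adjusted p = 0.272). The dimmest, 1439524_at, had a difference of 0.50 ± 0.18 between ZT3 and ZT9 (adjusted p = 0.354). Dnajb6 (chr5:29735898-29786478), which holds back aggregation of polyglutamine proteins, had differences of 0.10 to 0.27 by its 3 tested probe sets. Its brightest, 1448234_at, had means between 11.99 and 12.09 and an adjusted p of 0.825. Dnajb2 (chr1:75236395-75245692), a neuron-rich member that links Hsp70 to the proteasome, had the smallest difference of the 31, 0.09 ± 0.13, with means between 9.60 and 9.70 (adjusted p = 0.936). These p-values do not show that the levels were equal.

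Dnajc5 (chr2:181518858-181552886) was read by 5 probe sets, with differences of 0.14 to 0.45 and adjusted p-values of 0.380 to 0.853. Its brightest, 1436179_a_at, had means of 11.27 ± 0.03 at ZT3, 11.40 ± 0.19 at ZT9, 11.32 ± 0.04 at ZT15 and 11.25 ± 0.19 at ZT21. ZT21 had the lowest mean in 4 of the 5, the exception being 1436180_at. In 1448850_a_at, ZT21 replicates 1 and 2 read 10.06 and 10.27 and replicate 3 read 10.71, so that 1 of the bright arrays stood apart from the other 2 mice of its group. The probe sets correlated with each other from -0.39 to 0.91.

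Against the light, the dark phase was compared as the mean of ZT15 and ZT21 minus that of ZT3 and ZT9, with a threshold of 0.05 on the adjusted p. Dnajb5 1450436_s_at was higher in the dark by 0.78 ± 0.12 (adjusted p = 0.0395) and Dnajc21 1460711_at by 0.65 ± 0.10 (0.0362), which makes 2 of 31 (6.45%) against 0.0937% of all tested probe sets. The other Dnajb5 probe sets were at 0.74 ± 0.13 (adjusted p = 0.0563) and 0.64 ± 0.12 (0.0824), and Dnajc21 1457281_at at 0.64 ± 0.13 (0.0978). Over the limma settings the differences stayed between 0.68 and 0.87 for Dnajb5 and between 0.52 and 0.73 for Dnajc21. Both calls lay close to the threshold and ended without most single arrays. That of Dnajb5 ended without any 1 of 8 arrays (adjusted p = 0.0730 to 0.141; it held without ZT9 replicate 1, ZT15 replicates 1 and 3 or ZT21 replicate 1) and that of Dnajc21 without any 1 of 9 (0.0521 to 0.141; it held without ZT9 replicate 1 or 2 or ZT15 replicate 1). Without the 4 bright arrays the differences were 0.75 and 0.71, and the adjusted p-values 0.0853 and 0.0574. Without the 2 arrays rich in Ttr they were 0.84 and 0.61, with 0.0583 and 0.0894, and there only Dnajb5 1421961_a_at was called among the members. Both calls also ended with the replicate block (0.0748 and 0.0763), without a filter (0.0949 and 0.0846) and without moderation (0.148 and 0.140).

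Between ZT9 and ZT15, the step across lights off, Dnajc21 1460711_at rose by 1.03 ± 0.14 (adjusted p = 0.0176). It was the only member called, 3.23% of the 31 against 0.118% of all tested probe sets that rose. Next to it stood Dnajc21 1457281_at, at 1.06 ± 0.18 (0.0514). The call ended without ZT9 replicate 1, ZT9 replicate 3, ZT15 replicate 2 or ZT15 replicate 3 (adjusted p = 0.0539 to 0.0641), without the 4 bright arrays (0.0645), without the 2 arrays rich in Ttr (0.121), without moderation (0.110) and with the replicate block (0.0620), where 1457281_at was called in its place, while the difference stayed between 0.81 and 1.19. At an unadjusted p under 0.05, 10 member probe sets (32.3%) were higher at ZT15 and 0 were lower, with 3.75% of all probe sets higher.

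The other 3 steps gave 0 member calls. From ZT3 to ZT9 the smallest adjusted p was 0.315, with 0.0448% of all probe sets called. At an unadjusted p under 0.05 there were 9 members, 5 higher and 4 lower, or 29.0% against 11.5% of all. From ZT15 to ZT21 the smallest was 0.299 (0.0122% of all called). All 10 members with an unadjusted p under 0.05 were lower at ZT21, which makes 32.3%. Of all probe sets 9.68% were higher or lower, a share not split by direction here. The 10 members came from 9 genes, among them Dnaja1, Dnaja2, Dnajb1 and Dnajc5. From ZT21 to ZT3 the smallest was 0.102, for Dnajb5 1450436_s_at, which was lower at ZT3 by 0.91 ± 0.17. There 0.0204% of all were called, and 9 members had an unadjusted p under 0.05, 4 higher and 5 lower at ZT3, or 29.0% against 19.2% of all.

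**Figure D3:**
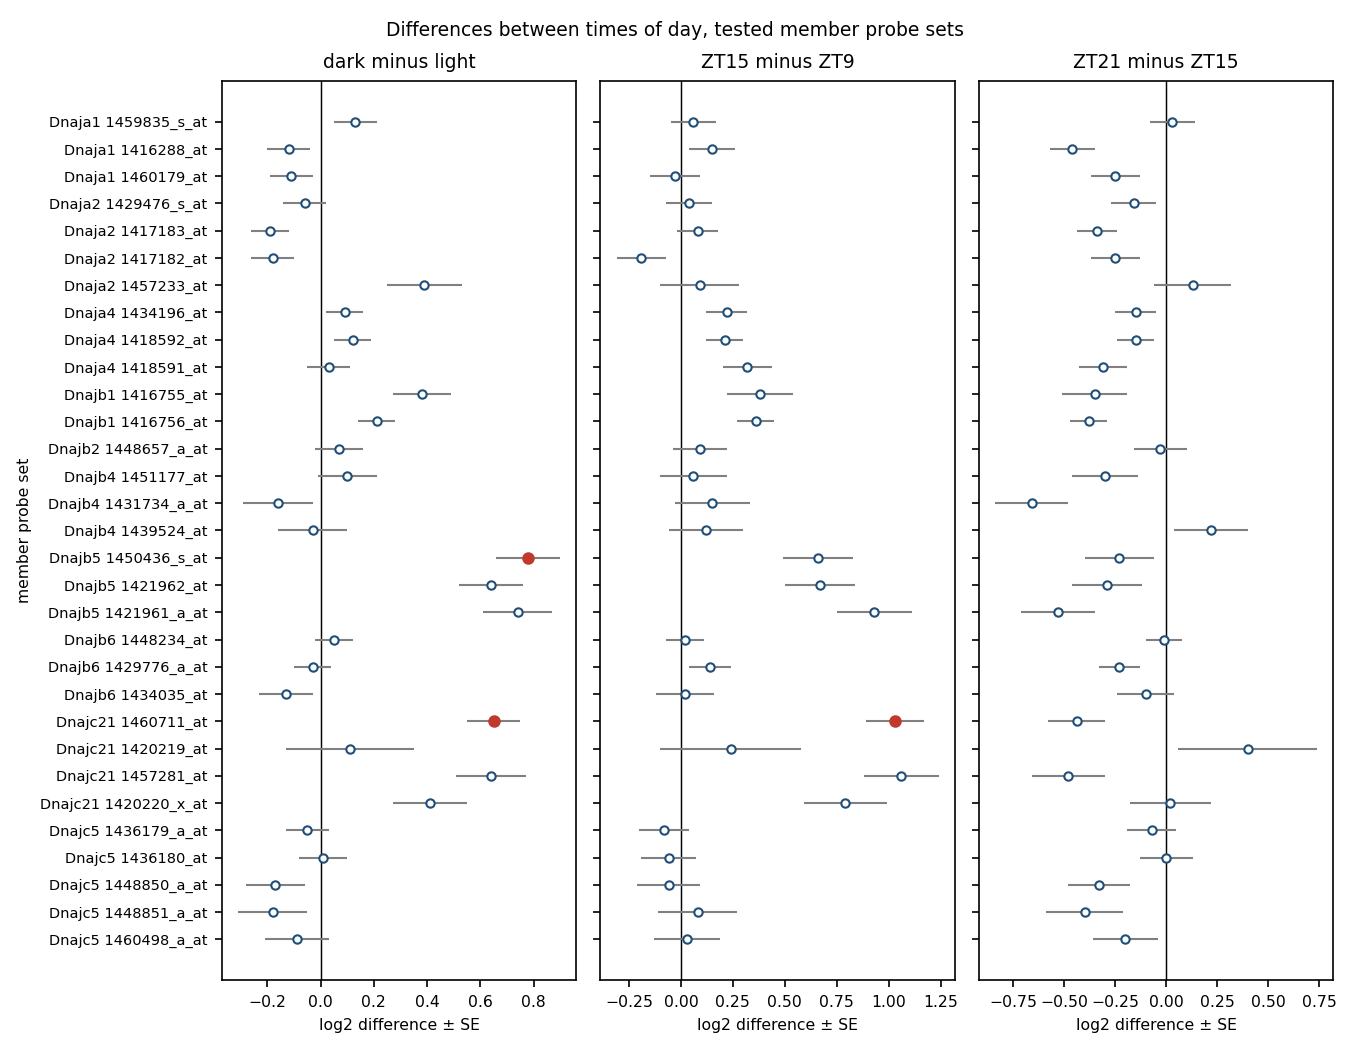
Difference in log2 intensity with its standard error (x axis) for each of the 31 tested member probe sets (y axis) in the dark minus the light phase, ZT15 minus ZT9 and ZT21 minus ZT15; filled red points have an adjusted p under 0.05. Dnajb5 and Dnajc21 stand to the right at 0.64 to 0.78 by 5 of their probe sets in the first panel, and most members lie left of 0 in the last.

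The Hsp70 system that the members serve was described by a list of 20 genes, of which 19 were on the array by symbol and 16 were tested. Of these, 1 passed the F-test (6.25%, against 2.06% of all genes), the stress-inducible Hsp70 gene Hspa1b. The median difference over the list was 0.29 against 0.26 over all genes. Hspa1b read 9.31, 9.46 and 9.25 at ZT3, 9.33, 8.87 and 8.24 at ZT9, 9.65, 10.17 and 10.98 at ZT15 and 9.29, 9.08 and 9.09 at ZT21. All 3 ZT15 mice were above the other 9, with a spread at ZT15 of 0.67 (SD). ZT15 exceeded ZT9 by 1.46 ± 0.31 (adjusted p = 0.192), and the call ended without any 1 of 7 arrays (all of ZT3, ZT9 replicate 2, ZT15 replicate 2, ZT21 replicates 1 and 2; 0.250 to 0.426), without a filter (0.341) or moderation (0.406) and with the replicate block (0.336). The near-identical gene Hspa1a had 8.53 ± 0.64 at ZT15 and 7.87 ± 0.29 at ZT9 (adjusted p = 0.372), and since probes for either may bind both, their values are uncertain as to the gene. The other 2 probe sets of Hspa1b were also highest at ZT15 and called (adjusted p = 0.188 and 0.193). These calls ended in the same 3 settings and without any 1 of the same 7 arrays, and that of 1427126_at also without ZT15 replicate 1 (0.203) or the 2 arrays rich in Ttr (0.212).

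The constitutive Hsp70 of the cytosol, Hspa8, had means between 14.58 ± 0.06 at ZT3 and 14.79 ± 0.05 at ZT15 (adjusted p = 0.465). The Hsp110 nucleotide exchange factor Hsph1 had its highest mean at ZT15 (12.18 ± 0.14) and its lowest at ZT21 (11.87 ± 0.12; adjusted p = 0.372) by its brightest probe set, but its other one, 1423566_a_at, was highest at ZT3 and was called (difference 0.66, adjusted p = 0.156). That call ended without the 2 arrays rich in Ttr (0.216), without a filter (0.234) or moderation (0.339) and with the replicate block (0.278), as it did without any 1 of 7 arrays (ZT3 replicates 2 and 3, ZT9 replicate 2, ZT15 replicates 1 and 2, ZT21 replicates 1 and 2; 0.206 to 0.426). Bag4, an exchange factor of the BAG family, stood highest at ZT9 (9.56 ± 0.11) and lowest at ZT21 (9.08 ± 0.18; 0.221). Lowest at ZT9 and highest at ZT21 were Hspbp1, another exchange factor, with a difference of 0.35 ± 0.10 (0.292), and Stip1, which joins Hsp70 to Hsp90, with 0.38 ± 0.14 (0.350). Of the 16, 9 had their highest mean at ZT15, as did 24.1% of all tested probe sets.

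The other DnaJ genes were taken as 37 genes in 3 lists by place in the cell, of which 28 were tested. The F-test called 2 of them (7.14%, against 2.06% of all genes). Both were among the 11 tested genes of the ER. Dnajb11, the co-chaperone of the ER Hsp70 Hspa5, read 9.13, 8.97 and 9.16 at ZT15, above the other 9 arrays, and ZT15 exceeded ZT21 by 0.56 ± 0.10 (adjusted p = 0.0926). Dnajc3, which also restrains the kinase Perk, exceeded its ZT3 mean of 9.03 ± 0.26 by 0.78 ± 0.16 at ZT15 (0.175). Dnajc1, a membrane protein of the ER bound to ribosomes, had the largest difference of the list, 0.87 ± 0.21, and was not called (0.245). The call of Dnajb11 ended without any 1 of 5 arrays (ZT3 replicates 2 and 3, ZT15 replicate 1, ZT21 replicates 1 and 2; 0.203 to 0.255), and that of Dnajc3 without any 1 of 8 (0.209 to 0.426; it held without ZT3 replicate 1, ZT9 replicates 1 and 3 or ZT21 replicate 3). Dnajb11 was also not called with the replicate block (0.254). Dnajc3 was not called with that block (0.268), without the 2 arrays rich in Ttr (0.231), without a filter (0.282) or without moderation (0.373).

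None of the 6 tested mitochondrial DnaJ genes and none of the 11 further genes of the cytosol and nucleus passed the F-test, and 1 of each had an unadjusted p under 0.05. They were Dnajc30, of the mitochondrial inner membrane (highest at ZT21, 9.99 ± 0.10, and lowest at ZT15, 9.68 ± 0.08; adjusted p = 0.287), and Dnajc13, of the early endosome (highest at ZT9, 9.00 ± 0.18, and lowest at ZT21, 8.62 ± 0.20; 0.287). The clathrin-uncoating auxilin Dnajc6, a neuronal neighbour of Dnajc5 in function at the synapse, had a difference of 0.23 ± 0.12 (0.547). The median differences were 0.30 in the ER list, 0.26 in the mitochondrial list and 0.23 in the list of the cytosol and nucleus.

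**Figure D4:**
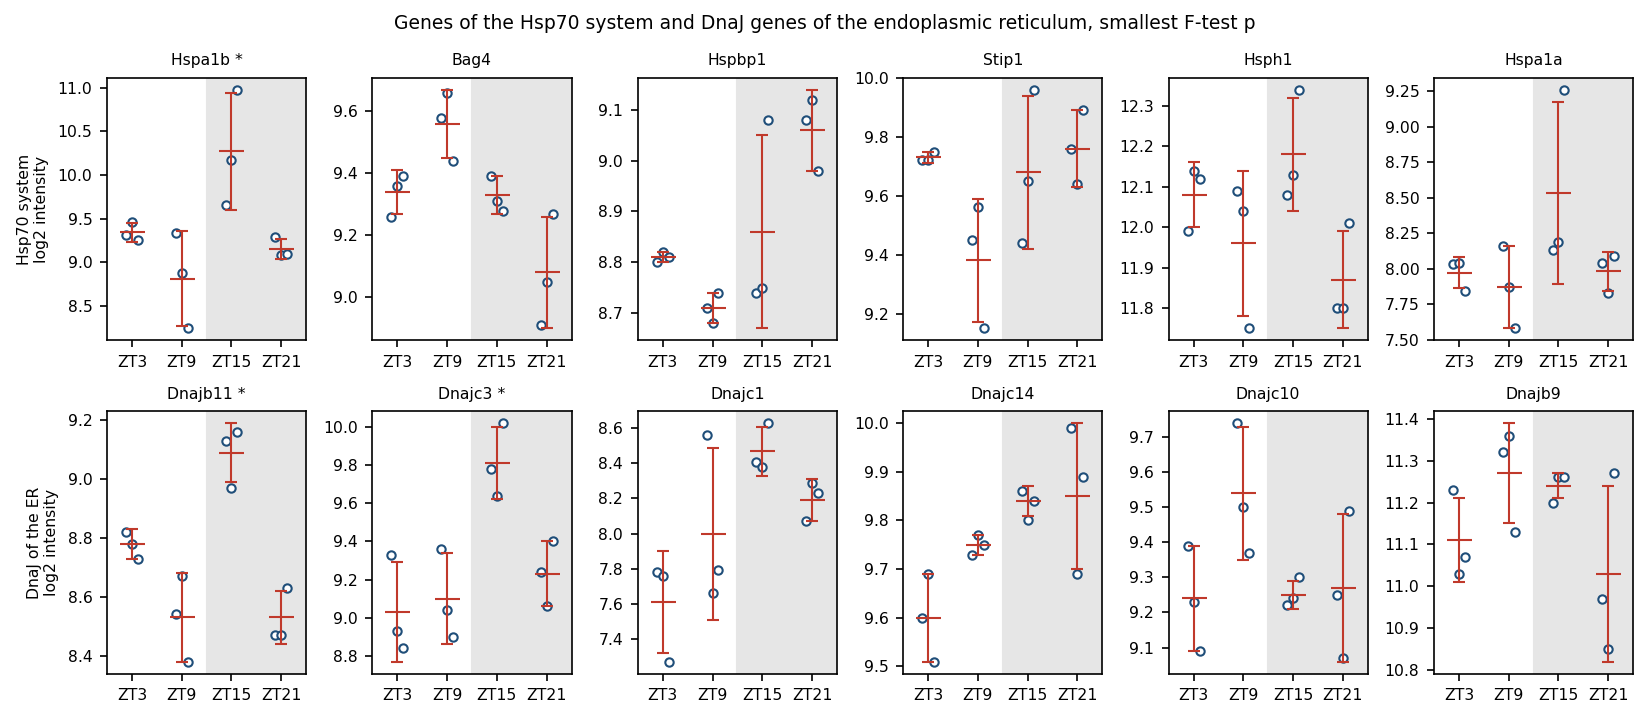
Log2 intensity (y axis, a separate scale per panel) in each of 3 mice (circles) with the mean and SD (red) at 4 Zeitgeber times, dark phase shaded, for the 6 genes with the smallest F-test p of the Hsp70 system (upper row) and of the DnaJ genes of the ER (lower row); an asterisk marks a call over the day. Hspa1b, Dnajb11 and Dnajc3 have all 3 ZT15 mice above the other 9.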

How the data were processed

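RNA of the prefrontal cortex of 12 mice was measured on 12 Affymetrix Mouse430_v2 arrays, 3 mice at each of 4 Zeitgeber times, and the replicates are separate mice. The unit of the deposited table is intensity, unlogged, from the authors' GCRMA step, and per the labels MAS5 was also used, which gave the detection calls of their filter. These calls were not analysed here. The 24546 probe sets with the highest mean, the number the authors kept, stood in for that filter. The table holds 45101 probe sets, 64 of them controls, and was not normalized again. Signal over background and 3 mice a group limit the precision. Depth does not apply.

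The log2 intensity (floor 1, which no value was below) was fitted in limma 3.58.1 (R 4.3.3; lmFit, eBayes) with 4 group means. The moderated F-test was called at an adjusted p under 0.20, and 5 two-sided contrasts at 0.05, both adjusted by Benjamini-Hochberg over all tested probe sets. Calculations were tested on simulated data. Symbols are those of the platform annotation (1 symbol for 34945 probe sets, 34741 matched in the reference by gene ID, 0 changed). Gene positions and promoters are from RefSeq, GRCm38.p6.

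Each tested member probe set is given by its own values or by the range over its gene. Values on every array are given for those called by the F-test and for some close to the threshold, which were chosen after their values were seen. Each other gene was represented by its brightest probe set, up to 6 per list with the smallest p were open to naming (Hspa8 and Dnajc6 were named besides), and the 5 most alike genes were ranked by Pearson's r. The members and lists were chosen with earlier results of these data known, and give no independent support. Protein sequences were not analysed here. Alternatives were quantile normalization, median centring, array weights, the 15000 brightest probe sets, no filter, a robust prior with intensity trend, a replicate block, each array left out, multiclass SAM with 100 permutations and no moderation. Leaving out the 4 brightest arrays or the 2 with the highest Ttr was added after seeing the data. Tables used pandas 2.3.3 and numpy 2.4.6, and figures matplotlib 3.10.9, in Python 3.11.15.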

Additional observations from a re-analysis of the deposited data

How the results depend on the processing

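The 7 calls over the day became 11 with quantile normalization, 11 with the 15000 brightest probe sets, 13 by SAM, 27 with array weights (where 60.0% of all probe sets were called), 4 without a filter, 1 without moderation and 19 without the 4 brightest arrays (25.3% of all), and 1 to 14 with 1 array left out. They fell to 1 without ZT3 replicate 2 or 3, to 2 without ZT15 replicate 2 and to 4 without ZT3 replicate 1, ZT9 replicate 2 or ZT21 replicate 1 or 2, and rose to 11 or more without ZT9 replicate 1 (12), ZT9 replicate 3 (11) or ZT21 replicate 3 (14). The share of all probe sets called shifted too, so the swings were not confined to the members. From 1.93% it became 8.73% with quantile normalization, 8.87% with the 15000 brightest (29 members tested) and 11.5% by SAM. It was 0.431% without a filter (33 members tested) and 0.322% without moderation. With 1 array left out it ran from 0.163% (without ZT3 replicate 2) to 12.3% (without ZT9 replicate 1). The 2 dark minus light calls became 5 with the 15000 brightest, 9 with array weights, 1 without the 2 arrays rich in Ttr (neither of the 2, but Dnajb5 1421961_a_at), 0 without a filter, moderation or the 4 brightest arrays, and 0 to 3 with 1 array left out. The 1 call from ZT9 to ZT15 became 3 with the 15000 brightest, 2 with median centring, 0 without moderation or either set of arrays, and 0 to 2 with 1 array left out. The 0 calls became 1 from ZT3 to ZT9, 11 from ZT15 to ZT21 and 15 from ZT21 to ZT3 with array weights, 5 and 8 in the last 2 without the 4 brightest arrays, and 0 to 1 from ZT21 to ZT3 with 1 array left out (1 without ZT15 replicate 3). The 1 Hsp70 call became 2 with the 15000 brightest or median centring, 3 by SAM, 4 with quantile normalization, 6 without the 4 brightest arrays, 8 with array weights, 0 without a filter or moderation, and 0 to 3 with 1 array left out. The 2 other DnaJ calls became 5 by SAM or quantile normalization, 7 without the 4 brightest arrays, 17 with array weights, 1 without a filter, moderation or the 2 arrays rich in Ttr, and 0 to 6 with 1 array left out. The Hsp70 and other DnaJ calls came from the same F-test, so the shares of all probe sets above belong beside them too, with 5.55% for median centring. The contrast counts have no such share of their own beside them, and with array weights 60.0% of all probe sets passed the F-test. Those counts are therefore no result about the members. The cause of these shifts was not tested. The 7 members called over the day, the 3 contrast calls and the called probe sets of Hspa1b, Hsph1, Dnajb11 and Dnajc3 kept the sign of their difference in each limma setting that tested them (Dnajc21 1420220_x_at was not among the 15000 brightest). With no filter, the 15000 brightest, the intensity trend, no moderation and the replicate block, the difference of the group means is unchanged by design. Its sign could not change in those settings. SAM gives no sign. Among members not called, the difference changed sign in Dnajc21 1420219_at (-0.19) and Dnajc5 1436180_at (-0.09) without the 4 brightest arrays, in Dnajb6 1448234_at with quantile normalization (-0.01) and in Dnajb2 1448657_a_at with array weights (-0.07).

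The replicate numbers did not pair the mice. Deviations of same-numbered arrays correlated from -0.498 to 0.487 (18 pairs, 6 over 0.1), so a replicate block is no paired design. With the replicate block 5 member probe sets were called over the day, where the share of all probe sets fell from 1.93% to 0.371%. All 5 were among the 7, without Dnajb1 1416756_at and Dnajc21 1420220_x_at. By the same F-test the calls of the Hsp70 system and of the other DnaJ genes were 0 each. Member calls for dark minus light were 0. From ZT9 to ZT15 there was 1, Dnajc21 1457281_at, while 1460711_at was lost at 0.0620. No share of all probe sets is given for these contrasts.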
